A study of Mus musculus with 11 samples.

Results

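Joint surfaces are kept slippery by a thin cell layer that secretes lubricin and hyaluronan, and 10 genes of that layer were followed here in the mandibular condylar fibrocartilage, the tissue that caps the jaw joint. The genes were Prg4, Has1, Has2, Cd44, Cd55, Clu, Clic5, Erg, Creb5 and Vit, taken by name from the 23420 gene symbols of the count table. All 10 were present and all 10 were among the 14531 genes with enough counts to be tested. They were chosen for what they are known to do, not for their values, although earlier results of these data were known when they were chosen.

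Tissue came from C57BL/6 female mice that had all been ovariectomized at 6 weeks of age and were sampled at 7 weeks. The 4 groups were estrogen receptor alpha knockout with estradiol (labelled KO E2, 3 samples), knockout with placebo (KO Plb, 3 samples), wild type with estradiol (WT E2, 3 samples) and wild type with placebo (WT Plb, 2 samples). Estradiol was 17β-estradiol from a 0.01 mg pellet made to release over 60 days, given for 1 week. Every control here is thus an ovariectomized animal. The knockout is labelled ERalphaKO with no allele named, so the form of the deletion is not known from the labels. Samples are numbered in the labels, which leave it unsaid whether each came from its own animal. The tests therefore speak only to sample-to-sample spread, part of which could be technical.

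Lubricin, the product of Prg4, is a large mucin-like glycoprotein that coats cartilage and lets surfaces glide with little friction. Hyaluronan, a long sugar polymer made at the cell membrane by the synthases Has1 and Has2, thickens joint fluid and is held at the cell surface by the receptor Cd44. In articular cartilage Prg4 marks the superficial zone, and in the synovium Prg4, Has1, Cd55 and Clic5 are used as markers of the lining fibroblasts. Reads of Prg4, Has1, Cd55 and Clic5 can thus come from either tissue when it is dissected together.

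Libraries held 15.7 to 25.5 M counts, and a level of 3 counts equalled 0.118 to 0.204 counts per M (CPM, scaled by the trimmed mean of M-values). Esr1, the receptor gene, lay at 2.55 to 4.86 CPM in the 6 KO libraries and at 6.43 to 13.4 CPM in the 5 WT libraries, so KO libraries were lower without being at 0. The defining genes of the tissue were present in every library, with Col1a1 at 45400 CPM or more, Col2a1 at 3710 or more, Acan at 855 or more and Col10a1 at 594 or more. All cells of the dissected tissue were sequenced together, and markers of neighbouring tissue varied. The summed level of 8 skeletal muscle markers was 4.57 to 5.76 CPM in KO E2, 60.7 to 572 in KO Plb, 19.5 to 189 in WT E2 and 24.4 and 970 in WT Plb. The 2 WT Plb libraries thus stood apart from each other, and WT Plb 2 also had 16.04% of its counts in the ribosomal precursor Rn45s, against 1.83% to 3.13% elsewhere. Results below come from all 11 libraries unless a sentence says otherwise, and a call is said to be lost where the adjusted p reached 0.05 or more in an alternative fit.

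Sequences upstream of the start site are shown for 3 members, from RefSeq in the build GRCm38.p6, which is not the mm9 build of the reads. Clic5 is shown because it passed the test in 1 comparison, and Has1 and Creb5 because theirs hold a cyclic AMP response element. That element, TGACGTCA, is the DNA site recognised by the family of factors to which the Creb5 protein belongs. Each run is the 250 bases before the start, 5′ to 3′, with any match in capitals. The Clic5 run is chr17:44188322-44188571, plus strand, the Has1 run is chr17:17855189-17855438, minus strand and the Creb5 run is chr6:53287053-53287302, plus strand.
Clic5: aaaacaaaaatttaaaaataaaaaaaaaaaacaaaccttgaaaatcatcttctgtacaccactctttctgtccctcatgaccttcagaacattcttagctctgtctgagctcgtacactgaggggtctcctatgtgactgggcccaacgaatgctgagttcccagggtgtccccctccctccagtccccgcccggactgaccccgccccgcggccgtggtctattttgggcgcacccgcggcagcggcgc
Has1: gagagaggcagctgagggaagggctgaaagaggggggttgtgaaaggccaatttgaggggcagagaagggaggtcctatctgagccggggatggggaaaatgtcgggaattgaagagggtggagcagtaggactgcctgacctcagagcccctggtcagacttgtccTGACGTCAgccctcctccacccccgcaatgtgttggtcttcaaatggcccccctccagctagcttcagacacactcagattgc
Creb5: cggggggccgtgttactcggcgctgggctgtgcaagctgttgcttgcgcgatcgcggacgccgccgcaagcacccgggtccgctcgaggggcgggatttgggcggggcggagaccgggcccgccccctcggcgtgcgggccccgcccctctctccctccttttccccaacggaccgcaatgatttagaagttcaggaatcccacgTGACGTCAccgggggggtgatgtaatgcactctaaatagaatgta
The table of promoters matched 6 of the 10 members (Cd55, Cd44, Creb5, Erg, Has1 and Clic5) with 9 start sites. In these 9 windows, searched on both strands, TGACGTCA occurred once in Has1, beginning 83 bases before the start, and once in Creb5, beginning 45 bases before. Of 32851 mouse promoter windows of the same length, 1.55% hold it. The AP-1 motif TGANTCA occurred in the window of a second Creb5 start and in 6.75% of all windows. The full estrogen response element GGTCANNNTGACC occurred in none of the 9 and in 0.0639% of all windows. No match overlapped another. These are matches of letters and not measured binding sites.

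Per length of exon, Cd44 was the most abundant of the 10, at a mean over groups of 56.4 reads per kilobase and M counts (RPKM). Clu followed at 25.2, Prg4 at 19.8 and Vit at 17.7, and the ranges of these 3 over libraries overlapped, with Clu at 14.8 to 35.3, Prg4 at 6.82 to 39.8 and Vit at 14.0 to 20.9 RPKM. Cd55 at 5.61 and Erg at 4.66 came next, with overlapping ranges, then Has2 at 2.13 and Clic5 at 2.13, Has1 at 0.431 and Creb5 at 0.247 RPKM. The hyaluronan receptor thus stood far above either hyaluronan synthase, and Has2 stood above Has1 in every library. Exon lengths are those of GENCODE M21 in GRCm38, and the annotation used for counting is not given in the sources used here, so these levels are approximate. Everything below is in CPM, which compares libraries and not genes.

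The members also differed in how steady they were. Prg4 spanned the widest range of the 10 over the 11 libraries, with a highest value 5.84 times its lowest. Cd44 spanned the narrowest, at 1.26 times. Cd55 and Vit spanned 1.49 and 1.5 times, Erg, Clic5, Creb5 and Has2 1.76 to 1.88 times, and Clu and Has1 2.39 and 2.48 times. Has1 had 28 to 73 counts per library, so part of its spread is counting error, while Prg4 had 542 to 3634.

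**Figure D1:**
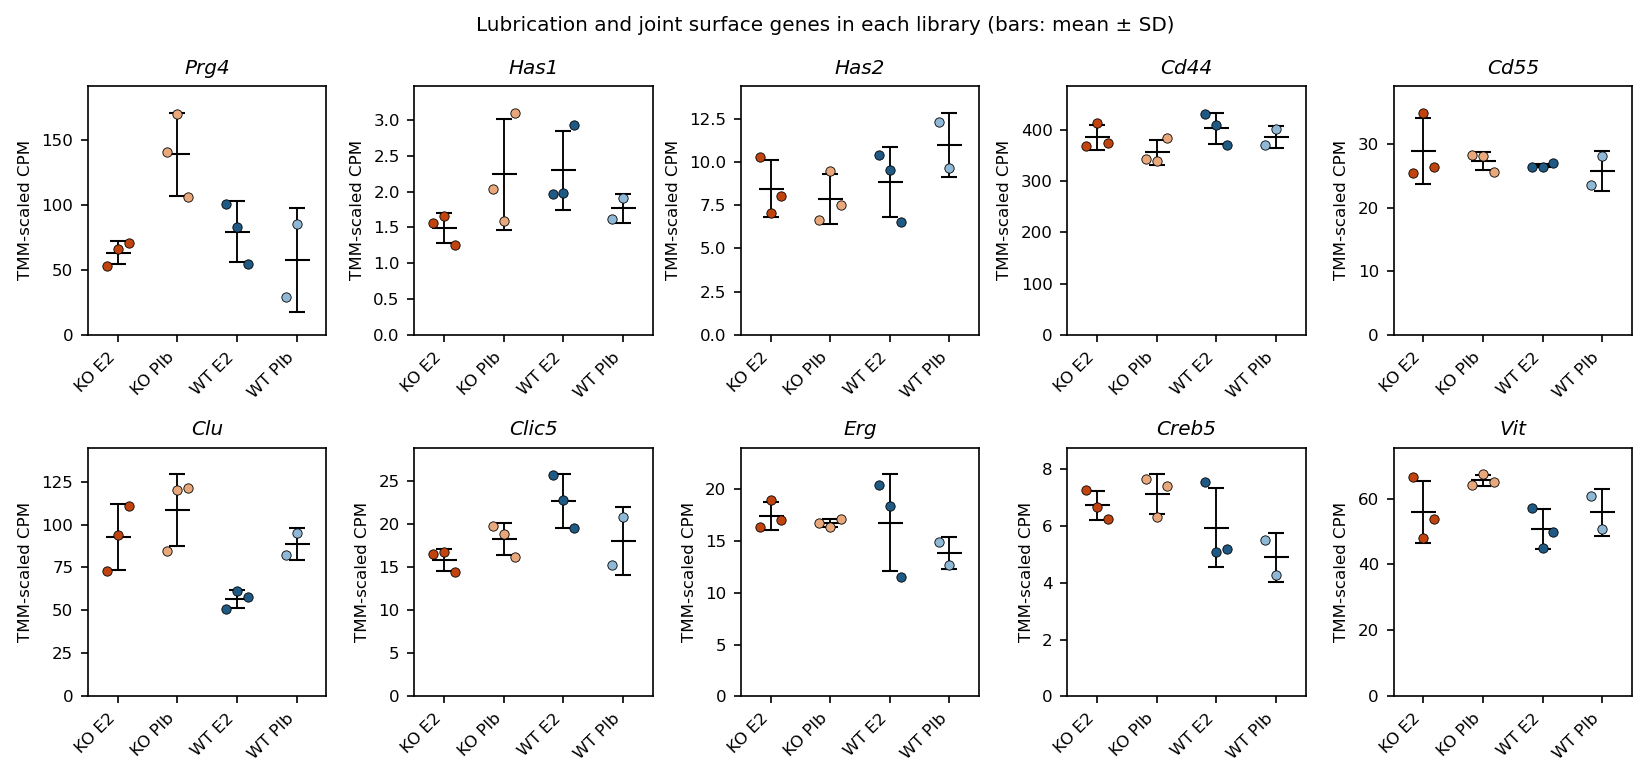
TMM-scaled CPM of the 10 genes, each point 1 library, with the mean ± SD of each group; panels have their own linear axes from 0. Prg4 lies at 106 to 170 CPM in KO Plb and at 29.2 to 101 CPM in all other libraries, while Clu is lowest in WT E2 at 50.8 to 61.6 CPM and Cd44 stays between 340 and 430 CPM.

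Prg4 was highest in knockout tissue under placebo. It was at 53.1, 66.1 and 70.5 CPM in KO E2, against 141, 170 and 106 CPM in KO Plb. It was at 101, 83.1 and 54.2 CPM in WT E2, against 29.2 and 85.6 CPM in WT Plb. All 3 KO Plb libraries were above the other 8, whereas the WT groups overlapped each other and WT Plb 1 was the lowest library of all. In bulk tissue, fewer cells of a type and less RNA per cell cannot be told apart.

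Whether estradiol changes Prg4 in KO tissue was tested first. The log2 difference between KO E2 and KO Plb was -1.14 (SE 0.39), which is 0.455 times the placebo level, and it did not pass over all genes (edgeR quasi-likelihood test, adjusted p = 0.193). None of the 10 members passed in this comparison, where 2.73% of all genes did (4.33% with the replicate number as a block, under which again none of the 10 passed). At an unadjusted p under 0.05 there was 1 member, Prg4, against 16.5% of all genes. Prg4 was also the 1 member of 10 whose KO E2 and KO Plb libraries did not overlap, which held for 24.8% of all genes. The log2 differences of the 10 ran from -1.14 to 0.11 with a median of -0.14, against -0.0026 over all genes.

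The SE of Prg4 in this contrast depends on which libraries set the spread. The 2 WT Plb libraries, at 29.2 and 85.6 CPM, enter the shared estimate of spread although they are not part of the contrast. With only the 2 KO groups in the fit the log2 difference was -1.14 (SE 0.19, adjusted p = 0.0515), and without WT Plb 1 or WT Plb 2 the adjusted p was 0.0496 and 0.0516. The authors' deposited table, which compares these 6 libraries alone, lists a log2 fold change of -1.11 (SE 0.16, adjusted p = 3.07e-09). The size of the difference was thus alike in these fits, and its call was not.

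Skeletal muscle markers moved with Prg4 in the same samples. Their summed level in KO E2 was 4.63, 4.57 and 5.76 CPM, against 401, 572 and 60.7 CPM in KO Plb, and all 7 tested markers were lower in every KO E2 library than in any KO Plb library. None of the 7 passed over all genes. The order of the KO Plb libraries was the same for Prg4 and for the muscle sum, with KO Plb 2 highest and KO Plb 3 lowest. Leaving out KO Plb 1, KO Plb 2 and WT Plb 2, the 3 libraries with the highest muscle sum, moved the log2 difference of Prg4 to -0.75, a choice made after the data were seen. It kept KO Plb 3, the KO Plb library lowest in Prg4, so a smaller difference followed from the choice itself. That fit has 1 KO Plb library, assumed to vary like the other groups. All 7 neutrophil markers were higher in every KO E2 library than in any KO Plb library, with sums of 1140 to 4050 CPM in KO E2 and 0.634 to 645 CPM in KO Plb. The part of the muscle and neutrophil signals in the Prg4 difference was not tested.

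In wild type tissue the estradiol difference of Prg4 did not pass (log2 0.48, SE 0.45, adjusted p = 0.725). None of the 10 members passed there in edgeR, where 1.55% of all genes did. At an unadjusted p under 0.05 there was 1 member, against 14% of all genes. Clu, lower, and Has1, higher, were the 2 members whose WT libraries did not overlap by agent, against 27% of all genes. The sign of the Prg4 difference rested on 1 library, since it was -0.11 without WT Plb 1 and 1.44 without WT Plb 2, fits that leave 1 WT Plb library. For Prg4 the estradiol effect in KO minus that in WT was -1.61 on the log2 scale (edgeR, SE 0.60, adjusted p = 0.320). It lay between -2.58 without WT Plb 2 and -1.03 without WT Plb 1. No member passed for this change of effect in edgeR, DESeq2 or limma-voom, and 1.15% of all genes passed in edgeR. At an unadjusted p under 0.05 in edgeR there were 2 members, against 11.6% of all genes. Under placebo the KO minus WT difference of Prg4 was 1.28 (log2, SE 0.46, edgeR adjusted p = 0.538). It was 0.70 without WT Plb 1 and 2.26 without WT Plb 2. Under estradiol the KO and WT libraries overlapped for Prg4, at 53.1 to 70.5 CPM in KO E2 and 54.2 to 101 CPM in WT E2 (log2 -0.33, SE 0.39, edgeR adjusted p = 0.642).

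**Figure D2:**
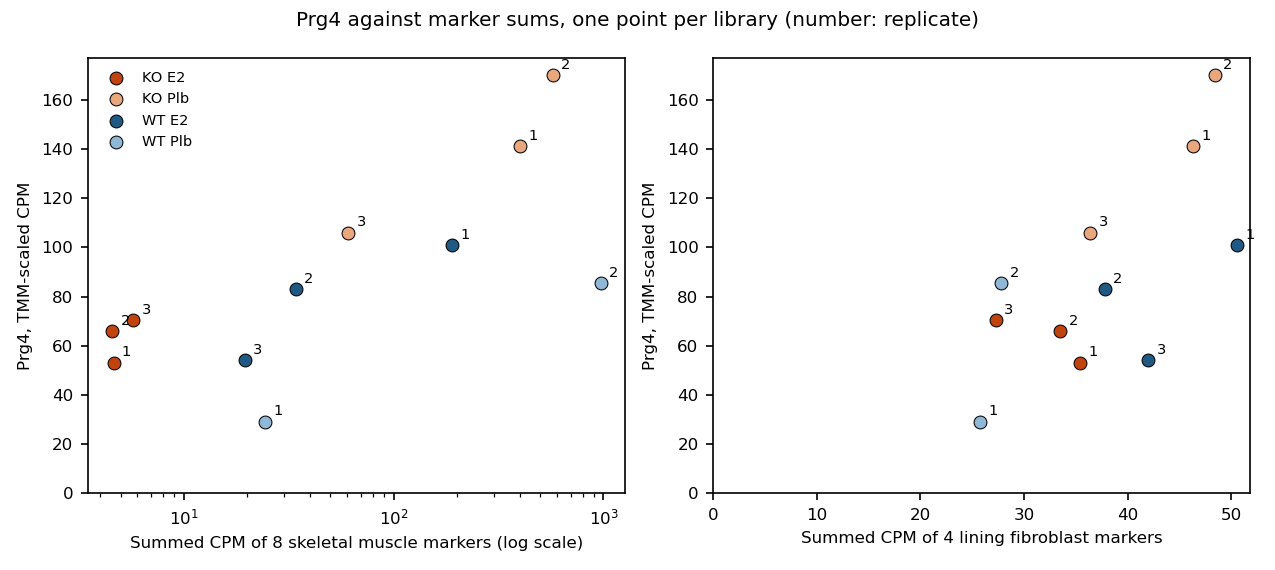
Prg4 (TMM-scaled CPM, linear axis) against the summed CPM of 8 skeletal muscle markers (left, log axis) and of 4 synovial lining fibroblast markers that are not members (right, linear axis), with 1 point per library and its replicate number beside it. KO E2 libraries have muscle sums of 4.57 to 5.76 CPM and KO Plb libraries 60.7 to 572 CPM, and WT Plb 2 has the highest muscle sum, 970 CPM, with Prg4 at 85.6 CPM.

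Clu, which encodes clusterin, a secreted chaperone and inhibitor of complement found in the superficial zone, was the 1 member that passed in 2 contrasts. It was at 72.9, 94.0 and 111 CPM in KO E2, against 50.8, 61.6 and 57.7 CPM in WT E2. It was at 84.5, 120 and 121 CPM in KO Plb, against 82.3 and 95.3 CPM in WT Plb. All 3 WT E2 libraries lay below the other 8. Under estradiol Clu was 1.64 times as high in KO as in WT and passed over all genes (log2 0.71, SE 0.17, adjusted p = 0.0217). In the same contrast all 7 neutrophil markers were higher and all 7 tested muscle markers lower without overlap, with neutrophil sums of 1140 to 4050 CPM in KO E2 and 6.71 to 35.0 CPM in WT E2, and muscle sums of 4.57 to 5.76 CPM in KO E2 and 19.5 to 189 CPM in WT E2. Their part in the Clu difference was not tested. Averaged over both agents the KO level of Clu was also higher (log2 0.50, SE 0.13, adjusted p = 0.0393). Under placebo the log2 difference was 0.29 (SE 0.19, adjusted p = 0.623).

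Estradiol against placebo in WT gave Clu 56.7 ± 5.49 CPM (SD, n = 3) in WT E2 and 88.8 ± 9.15 CPM (SD, n = 2) in WT Plb. The groups did not overlap, but the log2 difference of -0.65 (SE 0.19) did not pass in edgeR (adjusted p = 0.128). It passed in DESeq2 over the 4 groups (adjusted p = 0.0207) and in edgeR with the 2 WT groups alone (adjusted p = 0.0480), and the authors' deposited table lists -0.64 (SE 0.14, adjusted p = 0.000761). In KO the difference was -0.23 (SE 0.17, adjusted p = 0.558), and the difference between these effects was 0.42 (SE 0.25, adjusted p = 0.627), so the data do not separate the WT effect from the KO effect. The call of Clu under estradiol was lost without KO E2 2, KO E2 3, WT E2 1 or WT E2 3, with adjusted p up to 0.0798. The averaged call was lost without any 1 of 9 of the 11 libraries, KO E2 1 and KO Plb 1 being the exceptions (adjusted p up to 0.0934 in these fits).

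Clic5, a chloride intracellular channel protein that links membranes to the actin skeleton and marks lining fibroblasts, went the other way under estradiol. It was at 16.5, 16.7 and 14.4 CPM in KO E2, against 25.7, 22.8 and 19.5 CPM in WT E2. It was at 19.7, 18.8 and 16.2 CPM in KO Plb, against 15.2 and 20.8 CPM in WT Plb. Every KO E2 library was below every WT E2 library, and the placebo groups overlapped. The KO minus WT difference under estradiol passed (log2 -0.51, SE 0.14, adjusted p = 0.0365), whereas under placebo it was 0.02 (SE 0.16, adjusted p = 0.974). Estradiol against placebo did not pass in KO (log2 -0.20, SE 0.14, adjusted p = 0.538) or in WT (log2 0.33, SE 0.16, adjusted p = 0.385). The KO estradiol effect minus the WT effect was -0.54 on the log2 scale and missed the threshold (SE 0.215, adjusted p = 0.326). The call was lost without any 1 of 6 libraries, KO E2 1, KO E2 2, KO E2 3, KO Plb 2, WT E2 1 and WT E2 2, with adjusted p up to 0.130. The 4 synovial lining markers that are not members summed to 27.3 to 35.4 CPM in KO E2 and 37.8 to 50.6 CPM in WT E2, without overlap. Of the 4, only Dnase1l3 was lower without overlap (means of 5.98 and 15.5 CPM). Hbegf (11.2 and 11.9 CPM) and Tspan15 (7.45 and 9.76 CPM) overlapped, as did Htra4, which was higher in KO E2 (7.42 and 6.23 CPM). In the same contrast all 7 tested muscle markers were lower without overlap, with sums of 4.57 to 5.76 CPM in KO E2 and 19.5 to 189 CPM in WT E2. All 7 neutrophil markers were higher without overlap, with sums of 1140 to 4050 CPM in KO E2 and 6.71 to 35.0 CPM in WT E2. The part of lining tissue, muscle or neutrophils in the Clic5 difference was not tested.

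Clu and Clic5 were the 2 members of 10 called between KO E2 and WT E2, 1 higher and 1 lower, where 11.5% of all genes were called, 7.27% higher and 4.2% lower. Between KO E2 and WT E2 libraries 3 members did not overlap, Clu, Clic5 and Has1, against 34.6% of all genes. Averaged over agents 1 member was called, Clu, against 7.36% of all genes. Under placebo 0 of 10 were called in edgeR, DESeq2 or limma-voom, and in edgeR 0.00688% of all genes were called there. At an unadjusted p under 0.05 in edgeR there were 2 members in that comparison, against 9.21% of all genes. With so few members, these counts are near the background of each comparison.

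**Figure D3:**
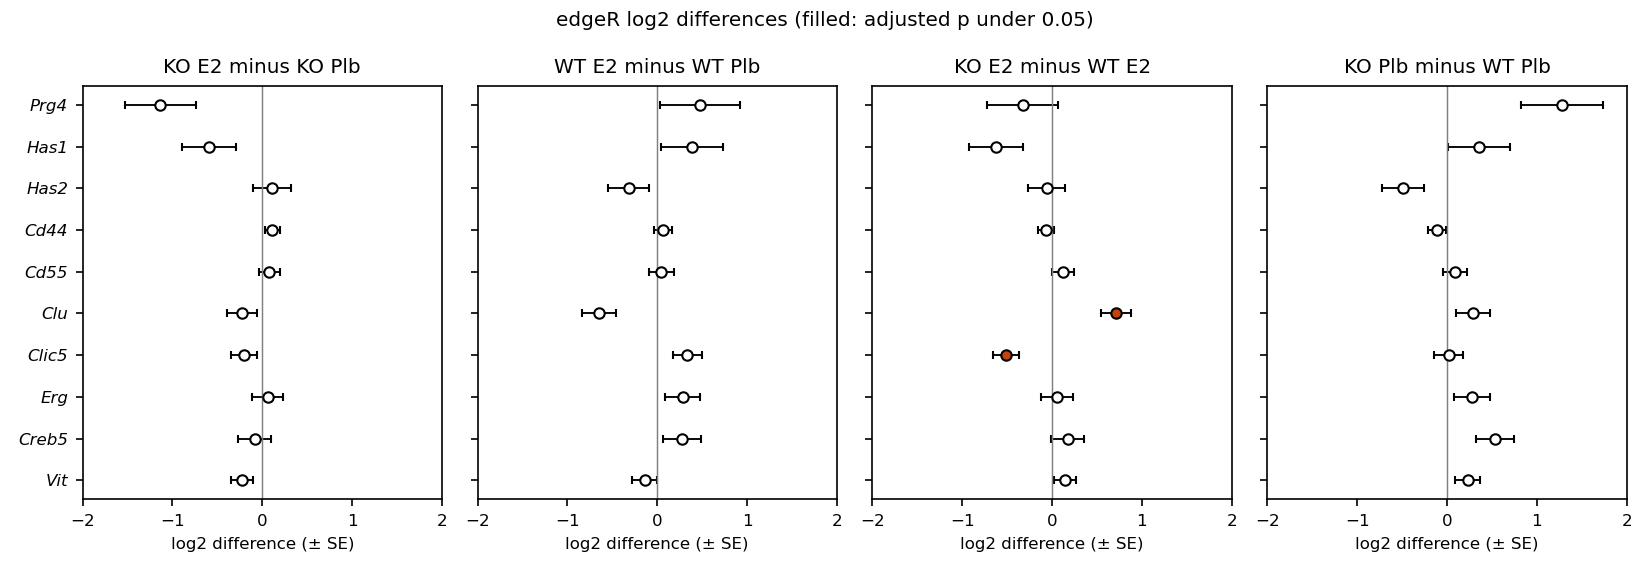
Log2 differences of the 10 genes in 4 comparisons (edgeR, points ± SE, filled where the adjusted p is under 0.05). Filled points are Clu at 0.71 and Clic5 at -0.51 in KO E2 minus WT E2, and Prg4 has the lowest value in KO E2 minus KO Plb, -1.14, and the highest in KO Plb minus WT Plb, 1.28.

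The hyaluronan synthases were expressed at low levels and neither passed in any comparison. Has1 was at 1.56, 1.66 and 1.25 CPM in KO E2, against 2.03, 1.59 and 3.10 CPM in KO Plb. It was at 1.97, 1.98 and 2.93 CPM in WT E2, against 1.62 and 1.91 CPM in WT Plb. Each WT E2 library was above each KO E2 library (log2 difference KO minus WT -0.62, SE 0.31, adjusted p = 0.211), and its KO effect of estradiol was -0.59 (SE 0.31, adjusted p = 0.361). KO E2 libraries held 28 Has1 counts each, which sets the precision. Has2, the main synthase of connective tissue, was at 10.3, 7.06 and 8.00 CPM in KO E2, against 6.64, 9.47 and 7.48 CPM in KO Plb. It was at 10.4, 9.52 and 6.55 CPM in WT E2, against 12.3 and 9.66 CPM in WT Plb. Under placebo each KO library lay below both WT libraries for Has2 (log2 -0.49, SE 0.23, adjusted p = 0.545), and under estradiol the genotypes overlapped (log2 -0.06, SE 0.21).

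Cd44, the cell surface receptor of hyaluronan, and Cd55, which shields cells from complement and marks lining fibroblasts, were steady. Cd44 averaged 385 ± 24.3 CPM in KO E2 and 356 ± 24.1 CPM in KO Plb (SD, n = 3 each). It averaged 403 ± 30.2 CPM in WT E2 (SD, n = 3) and 385 ± 22.0 CPM in WT Plb (SD, n = 2). Its log2 differences in the 6 contrasts lay between -0.11 and 0.11, with SEs of 0.065 to 0.13, so changes as large as those of Clu lie well outside these errors. Cd55 averaged 29.0 ± 5.25 CPM in KO E2 and 27.4 ± 1.44 CPM in KO Plb (SD, n = 3 each). It averaged 26.7 ± 0.284 CPM in WT E2 (SD, n = 3) and 25.8 ± 3.20 CPM in WT Plb (SD, n = 2). KO E2 2, at 35.0 CPM, was the highest Cd55 library, and no Cd55 contrast passed, the largest being 0.12 on the log2 scale.

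Neither transcription factor passed in any comparison. Erg, an ETS factor of joint-forming cartilage that endothelial cells also express strongly, was at 16.3 to 18.9 CPM in KO E2 and 16.3 to 17.1 CPM in KO Plb. It was at 11.5 to 20.4 CPM in WT E2 and at 14.9 and 12.7 CPM in WT Plb. The other 6 endothelial markers summed to 269 to 305 CPM in KO E2, 295 to 323 in KO Plb, 315 to 378 in WT E2 and 261 and 334 in WT Plb, with 0 of the 6 markers undetected, and the part of vessels in the Erg level was not tested. Creb5, which in cultured bovine superficial chondrocytes is needed for Prg4 expression, was at 7.26, 6.65 and 6.26 CPM in KO E2, against 7.65, 6.33 and 7.39 CPM in KO Plb. It was at 7.54, 5.10 and 5.19 CPM in WT E2, against 5.49 and 4.29 CPM in WT Plb. All 3 KO Plb libraries were above both WT Plb libraries, as they were for Prg4, yet neither gene passed (Creb5 log2 0.54, SE 0.21, adjusted p = 0.538).

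Vit encodes vitrin, a matrix protein with von Willebrand factor A domains of cartilage and other connective tissue. It averaged 56.0 ± 9.41 CPM in KO E2 and 65.5 ± 1.73 CPM in KO Plb (SD, n = 3 each). It averaged 50.7 ± 6.12 CPM in WT E2 (SD, n = 3) and 55.8 ± 7.13 CPM in WT Plb (SD, n = 2). The 3 KO Plb libraries, at 64.0 to 67.4 CPM, were above both WT Plb libraries (log2 0.23, SE 0.14, adjusted p = 0.599). Under placebo 5 of the 10 members had KO libraries that did not overlap the WT libraries, Prg4, Erg, Creb5 and Vit on the higher side and Has2 on the lower, against 27% of all genes, in a comparison with 3 and 2 libraries where 1 gene of the whole table was called.

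Genes whose level most resembled that of Prg4 were ranked by Pearson r of log2 CPM over the 11 libraries, among 10703 genes with a mean of at least 5 CPM, as a description with no test. Among the highest 8 were Mfi2 (r 0.909), which encodes the iron-binding cell surface protein melanotransferrin, Lyve1 (r 0.824), a hyaluronan receptor of lymphatic vessels and tissue macrophages, and Fam65c, Slc22a5, Rap1gap, Guf1 and Parp3 (r 0.799 to 0.812). Mfi2 was at 35.6, 32.2 and 35.6 CPM in KO E2, against 49.1, 48.0 and 42.4 CPM in KO Plb, and at 52.2, 41.9 and 32.7 CPM in WT E2, against 24.7 and 36.1 CPM in WT Plb. Like Prg4, it was lowest in WT Plb 1 and higher in each KO Plb library than in any KO E2 library. The list rests on WT Plb 1, because without that library 0 of the 8 were among the 50 most similar genes, and it kept 3 of 8 under Spearman rank correlation.

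Ranked by deviations from group means instead, which leave out the differences between groups, the 8 most similar genes included Myh2, Sema6c, Tnnc2, Ryr1, Ttn, Ldb3 and Myom1, with r of 0.957 to 0.975. Apart from Sema6c, a semaphorin, these encode proteins of the muscle sarcomere or, for Ryr1, its calcium release channel. Of these, Myh2 at 0.0558 to 0.297 CPM and Tnnc2 at 0.167 to 0.356 CPM in KO E2 lay near or under the level of 3 counts, and they reached the mean of 5 CPM through other libraries, chiefly WT Plb 2 at 197 and 89.7 CPM. Without both WT Plb libraries, whose deviations mirror each other, r was 0.886 to 0.952 over 9 libraries. Sema6c was then at rank 8 and the other named genes were at ranks 15 to 67. The libraries had the same order for Prg4 and for the muscle marker sum in KO Plb, WT E2 and WT Plb, but not in KO E2, where the sums were 4.57 to 5.76 CPM. All points of such a comparison share library, depth and scaling. Among the members themselves, Clic5 followed Prg4 most closely by deviations (r 0.83, and 0.43 over all 11 libraries).

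Lining fibroblasts of the synovium could be part of the dissected tissue, and 4 of their markers that are not members were Hbegf, Dnase1l3, Htra4 and Tspan15. None was at 0 in any group. Their summed level was 27.3 to 35.4 CPM in KO E2, 36.4 to 48.4 in KO Plb, 37.8 to 50.6 in WT E2 and 25.8 and 27.8 in WT Plb. Sums were thus higher in every WT E2 library than in either WT Plb library, and higher in every KO Plb library than in any KO E2 library. They were lower in every KO E2 library than in any WT E2 library. The 4 markers did not move as a set. Between KO E2 and KO Plb only Htra4 did not overlap, and Hbegf and Dnase1l3 had slightly higher means in KO E2. Between KO E2 and WT E2 only Dnase1l3 did not overlap. Between WT E2 and WT Plb Hbegf, Dnase1l3 and Tspan15 did not overlap, while Htra4 was level at 6.23 and 6.05 CPM. Htra4, a secreted serine protease, was at 7.93, 9.20 and 5.14 CPM in KO E2, against 21.2, 27.1 and 10.1 CPM in KO Plb, the same order over the KO Plb libraries as Prg4 (log2 -1.40, SE 0.39, adjusted p = 0.101). Htra4 thus did not pass in the main fit. It passed with the replicate number as a block (log2 -1.34, SE 0.25, adjusted p = 0.0167), in DESeq2 (adjusted p = 0.00305) and in edgeR without KO Plb 3 (adjusted p = 0.0292). In every other alternative fit it did not pass. Dnase1l3, a secreted nuclease also made by macrophages and endothelium, was 2.26 times as high in WT E2 as in WT Plb (15.5 and 6.90 CPM, adjusted p = 0.0293), and lower in KO E2 than in WT E2 (5.98 and 15.5 CPM, adjusted p = 0.00146). Both were named after their values were seen, and the Dnase1l3 call in WT was lost without WT E2 1, WT E2 3, WT Plb 1 or WT Plb 2 (adjusted p up to 0.131) and without KO Plb 1, KO Plb 2 and WT Plb 2 together (0.103). The part of lining tissue in the member values was not tested.

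Other genes of hyaluronan turnover were taken from a list of 27, of which 23 had enough counts to be tested. Estradiol raised 1 of the 23 in KO and the same 1 in WT, beside 2.73% and 1.55% of all genes called. It was Hmmr, the intracellular hyaluronan-binding protein of the mitotic spindle. It was at 37.6, 27.5 and 24.4 CPM in KO E2, against 11, 10.4 and 12.5 CPM in KO Plb (log2 1.40, SE 0.20, adjusted p = 0.00532). It was at 32.8, 24.7 and 20.7 CPM in WT E2, against 10.6 and 13.2 CPM in WT Plb (log2 1.14, SE 0.23, adjusted p = 0.0294). The WT call was lost in limma-voom (adjusted p = 0.0787) and in edgeR without WT E2 1, WT E2 2 or KO Plb 1 (adjusted p up to 0.0903). It was also lost without WT Plb 1 or WT Plb 2, which left 1 WT Plb library (log2 0.98 and 1.30). Without KO Plb 1, KO Plb 2 and WT Plb 2 together both calls were lost (log2 1.30 in WT and 1.26 in KO), with 1 library left in each placebo group. Between KO E2 and WT E2, 2 of the 23 were higher and 1 lower, near the 11.5% of all genes called there. Vcan, the large hyaluronan-binding proteoglycan versican, was at 218, 188 and 185 CPM in KO E2, against 92.2, 97.1 and 65.3 CPM in WT E2 (log2 1.21, SE 0.15, adjusted p = 0.000578), with no overlap, and it kept its call in every alternative fit. Itih5, of the family whose heavy chains are attached to hyaluronan, was higher (log2 0.88, SE 0.20, adjusted p = 0.0186) and Stab1, a scavenger receptor of macrophages and sinusoids that binds hyaluronan, was lower (log2 -0.62, SE 0.13, adjusted p = 0.0117). Stab1 stood beside a macrophage marker sum of 434 to 494 CPM in KO E2 and 662 to 677 CPM in WT E2. The Itih5 call was lost without WT E2 3, KO E2 1 or KO E2 2 (adjusted p up to 0.0636). Vcan, Itih5 and Stab1 also passed in the same directions averaged over agents. There the call of Itih5 was lost in 8 alternative fits (adjusted p up to 0.0797) and that of Stab1 in 11 (up to 0.326), limma-voom among them, and leaving out any 1 library except WT Plb 2, WT E2 2, KO Plb 1 and KO E2 3 ended the Itih5 call and any except KO Plb 3 and KO E2 3 the Stab1 call.

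A list of 25 genes of the superficial zone and joint surface, all tested, had 0 called for estradiol in either genotype in edgeR. Between KO E2 and WT E2, 2 of the 25 were higher and 0 lower, a share below the 11.5% of all genes called there. These were Abi3bp, an extracellular matrix protein, at 54.3, 69.9 and 59.7 CPM in KO E2, against 32.1, 35.0 and 19.4 CPM in WT E2 (log2 1.09, SE 0.27, adjusted p = 0.0313), and Foxo1, a transcription factor that in mouse articular cartilage maintains Prg4, at 54.4, 47.5 and 50.4 CPM in KO E2, against 41.8, 42.8 and 31.8 CPM in WT E2 (log2 0.39, SE 0.11, adjusted p = 0.0471). Abi3bp lost that call with no filter on low counts (adjusted p = 0.0525) and without WT E2 1, WT E2 3, KO E2 2 or KO E2 3 (up to 0.101). Foxo1 lost it in 11 other fits, limma-voom and the 2 groups alone among them and all single libraries left out except WT Plb 1, WT Plb 2 and WT E2 2, with adjusted p up to 0.136. Averaged over agents Foxo1 was higher (log2 0.37, SE 0.09, adjusted p = 0.0252) and Gdf5, the growth factor of joint progenitors, was lower (log2 -0.98, SE 0.22, adjusted p = 0.0229). Gdf5 was at 1.73 to 3.66 CPM in the KO libraries and 3.61 to 6.94 CPM in the WT libraries, and it lost its call without KO Plb 1, KO Plb 2, WT E2 1 or WT Plb 2 (adjusted p up to 0.115). The averaged Foxo1 call was lost without KO Plb 2 or WT Plb 2, and both averaged calls without KO Plb 1, KO Plb 2 and WT Plb 2 together (adjusted p = 0.334 for Gdf5 and 0.275 for Foxo1). The median log2 difference of the 25 was -0.17 for estradiol in KO and 0.0078 in WT, against medians within 0.003 of 0 over all genes.

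Of 21 genes for signals known to act on Prg4 in cartilage, 20 were tested, and 4 were higher and 1 lower in KO E2 than in WT E2, where 7.27% of all genes were higher and 4.2% lower. Pth1r, the receptor of parathyroid hormone-related protein, which acts through cyclic AMP, was at 611, 483 and 548 CPM in KO E2, against 796, 806 and 835 CPM in WT E2 (log2 -0.57, SE 0.10, adjusted p = 0.00318). Smad2, which carries TGF-beta signals, Creb1, the factor that binds cyclic AMP response elements, and Egfr, the epidermal growth factor receptor, were higher by 0.46, 0.45 and 0.40 on the log2 scale (adjusted p = 0.00427, 0.0134 and 0.0174). Averaged over agents Pth1r was lower (log2 -0.40), and Creb1, Bmp7 and Smad2 were higher (log2 0.33, 0.46 and 0.25), in a contrast where 7.36% of all genes were called. Another gene called higher under estradiol was outside the 4 of smallest p and is not named, and its calls in other fits are not given. Among those named, the calls under estradiol were lost for Creb1 without WT E2 1 (edgeR adjusted p = 0.0508) and for Egfr without KO E2 2 or KO E2 3 (up to 0.0562). Leaving out KO Plb 1, KO Plb 2 and WT Plb 2 together ended all 4 averaged calls. Without 1 library the averaged call of Creb1 was lost for WT Plb 2 and WT E2 1, that of Bmp7 for 8 of the 11 libraries (all but WT E2 1, WT E2 3 and KO E2 1) and that of Smad2 for 7 (all but WT Plb 1, WT E2 1, KO Plb 3 and KO E2 1). Over these fits the adjusted p reached 0.0891 for Creb1, 0.164 for Bmp7 and 0.376 for Smad2. None of the 20 was called for estradiol in KO or in WT, nor in the change of that effect with genotype, in edgeR.

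The remaining lists held relatives of single members. Of 8 ETS, CREB and ATF relatives 1 was called, Ets2, lower in KO E2 than in WT E2 (log2 -0.30, SE 0.08, adjusted p = 0.0330), where 11.5% of all genes were called. Ets2 lost that call in 7 fits, with the 2 groups alone (adjusted p = 0.0563), without WT E2 1, WT E2 2, KO Plb 1, KO E2 2 or KO E2 3 (up to 0.139) and without the 3 libraries of highest muscle sum. Of 6 tested chloride intracellular channels and their cytoskeletal partners 0 were called in any contrast in edgeR, which sets Clic5 beside Clic1, Clic4 and Clic6. Of 8 tested complement genes 1 was called in the contrast of KO E2 and WT E2, C3, the central complement component, at 22.1, 75.3 and 33.4 CPM in KO E2, against 4.10, 4.14 and 4.33 CPM in WT E2 (log2 3.37, SE 0.53, adjusted p = 0.00592). C3 was at 5.41, 14.7 and 7.35 CPM in KO Plb and at 11.3 and 14.2 CPM in WT Plb. The 7 neutrophil markers summed to 1140, 4050 and 1360 CPM in KO E2 and to 6.71, 35.0 and 8.12 CPM in WT E2, with none of the 7 at 0 in either group, and KO E2 2 was the highest library for both. The part of these cells in the C3 difference was not tested.

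**Figure D4:**
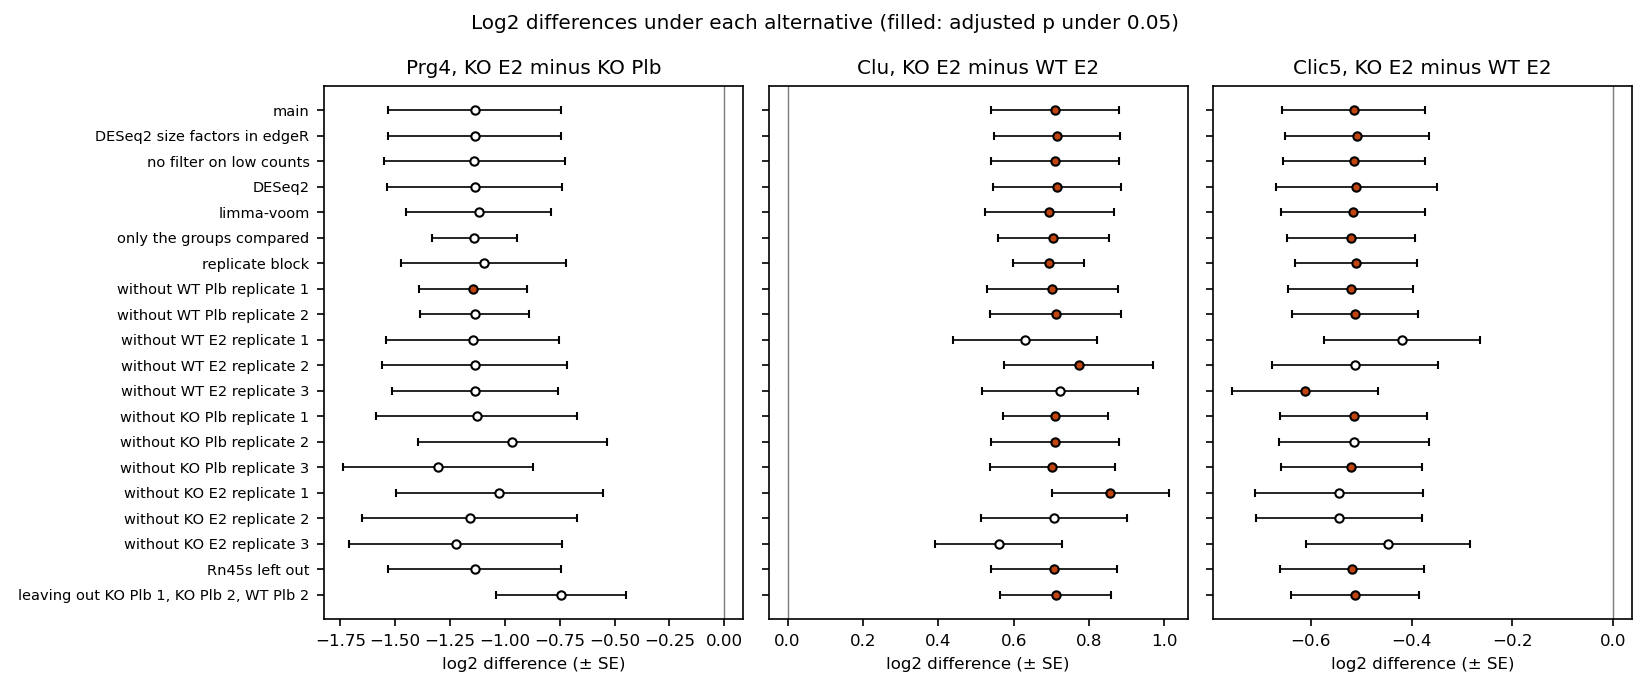
Log2 differences (± SE, filled where the adjusted p is under 0.05) of Prg4 in KO E2 minus KO Plb, and of Clu and Clic5 in KO E2 minus WT E2, under each alternative fit, 1 row per fit. Prg4 ranges over -1.31 to -0.75 and is filled in 1 row, without WT Plb 1, while Clu and Clic5 keep their direction in all rows and lose their call in 4 and 6.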

How the data were processed

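Poly-A RNA was sequenced in 11 samples, and the authors deposited a table of raw whole-number counts per gene symbol and 6 tables of pairwise comparisons. TopHat, the build mm9 and bcl2fastq 2.17 are named in the submitters' processing notes. Sources used here do not give the counting program, its annotation or its use of strand. Reads of overlapping or near-identical genes may therefore be shared. Per the file headers, the authors' tables hold log2 fold changes with standard errors, a test score and p-values. Only values named as theirs are quoted.

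In R 4.3.3 with edgeR 4.0.16, filterByExpr kept 14531 genes, and a robust quasi-likelihood model of the 4 groups (7 residual degrees of freedom) was fitted to TMM-scaled counts of all 11 libraries. Contrasts were adjusted by Benjamini-Hochberg over all genes, with a call at an adjusted p under 0.05, and the SE was the absolute log2 difference divided by the root of F. DESeq2 1.42.0 and limma-voom (limma 3.58.1) served as alternatives. The model was also run on simulated counts in which all genes had the same spread beyond counting error. No result here draws on that run. The 10 members were always named, as were up to 4 called genes per list and contrast and the 8 genes most like Prg4, of which 1 by each measure is not reported here. Members and lists were chosen with earlier results of these data known. Same-numbered KO E2 and KO Plb libraries deviated together from their group means (r 0.142 to 0.386 over 3 pairs). With WT E2, same-numbered r was 0.0505 to 0.0854 for KO E2 and 0.0504 to 0.132 for KO Plb. With WT Plb it was 0.0829 to 0.198 for the KO groups, and -0.203 and -0.159 for WT E2. Across groups, 7 of 15 same-numbered and 3 of 30 other-numbered pairs had r over 0.1. The main fit has no block for the number. Intervals for counting error are not given, and 0 sample columns were left unmapped. No 2 libraries of a group matched within sampling noise.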

Additional observations from a re-analysis of the deposited data

How the results depend on the processing

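Of 60 member results (10 genes in 6 contrasts), 46 kept their direction in every alternative and 14 did not, and the 28 results of named list genes kept theirs. The number of called members for estradiol in WT, 0, became 1 (Clu) in DESeq2, with only the groups compared and with the replicate block (log2 -0.73, adjusted p = 0.00648); the block changed no other call of a member. Leaving out single libraries, it stayed 0 in WT and was 0 to 1 in KO, 0 to 2 for KO against WT under estradiol and 0 to 1 averaged, where it was also 0 without KO Plb 1, KO Plb 2 and WT Plb 2. Of the 8 genes most like Prg4, 0 to 8 remained without single libraries and 3 under Spearman rho. Reversed values were all in results that were not called, and the cause was not tested. Leaving out single libraries, Prg4 ranged from -0.11 to 1.44 and Cd55 from -0.081 to 0.177 for estradiol in WT, and Has2 from -0.058 to 0.262 and Cd55 from -0.067 to 0.162 in KO. For the change of that effect with genotype, Cd44 ranged from -0.012 to 0.101, Cd55 from -0.119 to 0.151 and Vit from -0.228 to 0.036. Under placebo, Cd55 ranged from -0.039 to 0.219 and Clic5 from -0.194 to 0.262. Under estradiol, Has2 ranged from -0.237 to 0.072, Cd55 from -0.031 to 0.201 and Erg from -0.155 to 0.215. With the replicate block Cd55 was at -0.016 in the interaction. Without KO Plb 1, KO Plb 2 and WT Plb 2 together, the interaction values were -0.115 for Cd44, -0.004 for Cd55 and 0.051 for Vit, Cd44 was at 0.051 under placebo and Has1 at 0.156 averaged. Counts over all genes moved more. For estradiol in KO edgeR called 396 genes, DESeq2 936, the block 629, the KO groups alone 226, fits without 1 library 105 to 505, and the fit without KO Plb 1, KO Plb 2 and WT Plb 2 called 1. For estradiol in WT the counts were 225 (edgeR), 639 (DESeq2), 128 (limma-voom) and 113 to 285 without 1 library. For the change of effect with genotype they were 167 (edgeR), 554 (DESeq2), 69 (limma-voom), 68 to 270 without 1 library and 301 under the block. Averaged KO against WT had 1069 in edgeR, 1895 in DESeq2, 408 to 1711 without 1 library and 160 without those 3. Under estradiol it had 1667 in edgeR and 867 to 1850 without 1 library. Under placebo it had 1 in edgeR, 38 in DESeq2, 17 under the block, 1 to 50 without 1 library and 6 without those 3. The interaction and the average have no fit with only the groups compared. Depth limits Has1 most, at 28 to 73 counts.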
